A study of Mus musculus with 2 samples.

Results

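The genes described here carry out or switch on antigen presentation in the mouse heart: the class II genes H2-Aa, H2-Ab1, H2-Eb1 and Cd74, the class I genes H2-K1, H2-D1, B2m and Tap1, and the transactivators Ciita and Nlrc5. They were chosen by symbol, and all 10 were found among the 19465 genes of the deposited feature list. RNA was read on 2 heart sections with Visium CytAssist, in which gene-specific probes are hybridised to formalin-fixed, paraffin-embedded tissue and captured on a grid of barcoded spots. Both sections, cut at 5 μm, came from mice that carry α-MHC-MerCreMer, a tamoxifen-activated Cre driven by the cardiomyocyte α-MHC promoter, and that received 1 intraperitoneal dose of tamoxifen at 80 mg/kg. The control mouse carried α-MHC-MerCreMer+/- alone. The transgenic mouse, whose section is called the TOP2B heart, was α-MHC-MerCreMer+/- hTOP2B LSL/-, in which human TOP2B was placed at Rosa26 behind a CAG promoter and a stop cassette that Cre removes. By the study's methods, mice were 6 weeks old at induction and controls were of the same age; the age at harvest, the strain background and the MHC haplotype are not given in the sources used here.

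Class II molecules are pairs of α and β chains that present peptides from engulfed material to CD4+ T cells, and they are made chiefly by macrophages, dendritic cells and B cells, with the invariant chain guiding their assembly. Class I molecules are present on nearly all nucleated cells, where a heavy chain and a light chain hold peptides that were pumped from the cytosol into the endoplasmic reticulum. CIITA and NLRC5 are related coactivators that bind no DNA themselves and act through an assembly of factors on a conserved promoter module. In the heart, resident macrophages are a well known source of class II.

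The promoter module holds a cyclic AMP response-like element followed by an inverted CCAAT box. The 5 promoters below show which of those letters each gene holds. Each line gives the 200 bases before the transcription start, 5′ to 3′ on the gene's strand, from RefSeq on GRCm38.p6. Capitals mark the letters TGACG of the response element and ATTGG of the inverted box, together with the interferon response-like GAANNGAAA and the NF-κB-like GGGATTCC. All were searched on both strands, overlapping matches run together, and ATTGG on the opposite strand appears as CCAAT.
H2-Aa: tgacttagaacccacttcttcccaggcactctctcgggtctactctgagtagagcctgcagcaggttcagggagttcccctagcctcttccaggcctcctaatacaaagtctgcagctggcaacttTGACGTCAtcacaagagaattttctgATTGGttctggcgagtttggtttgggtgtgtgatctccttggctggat
H2-Eb1: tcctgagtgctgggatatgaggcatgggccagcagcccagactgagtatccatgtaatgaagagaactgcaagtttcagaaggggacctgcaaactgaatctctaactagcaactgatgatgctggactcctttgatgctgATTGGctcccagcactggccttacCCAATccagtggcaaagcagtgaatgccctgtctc
H2-K1: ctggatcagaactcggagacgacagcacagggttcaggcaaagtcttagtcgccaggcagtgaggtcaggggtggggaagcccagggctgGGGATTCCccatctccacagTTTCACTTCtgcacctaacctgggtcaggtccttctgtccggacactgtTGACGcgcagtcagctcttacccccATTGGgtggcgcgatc
H2-D1: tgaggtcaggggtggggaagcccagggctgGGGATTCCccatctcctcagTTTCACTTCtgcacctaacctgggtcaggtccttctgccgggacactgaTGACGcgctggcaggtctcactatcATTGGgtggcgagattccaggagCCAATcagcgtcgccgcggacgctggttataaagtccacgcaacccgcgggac
B2m: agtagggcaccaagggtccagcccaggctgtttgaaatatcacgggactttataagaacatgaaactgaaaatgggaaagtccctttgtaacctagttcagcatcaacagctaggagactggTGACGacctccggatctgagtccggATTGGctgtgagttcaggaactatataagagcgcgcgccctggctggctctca
The windows lie at chr17:34287824-34288023 on the minus strand for H2-Aa, chr17:34305667-34305866 on the plus strand for H2-Eb1, chr17:34000348-34000547 on the minus strand for H2-K1, chr17:35262894-35263093 on the plus strand for H2-D1 and chr2:122147487-122147686 on the plus strand for B2m. TGACG followed by ATTGG on the same strand stood in the H2-Aa promoter with 21 bases between them and in the H2-K1, H2-D1 and B2m promoters with 20 bases between them. Among 32851 promoter windows of 250 bases, 0.475% held this order with at most 40 bases between the letters, while TGACG alone stood in 17.8% and ATTGG alone in 33.8%. H2-Eb1 held ATTGG on both strands but no TGACG. H2-K1 and H2-D1 also held GGGATTCC, found in 0.889% of windows, and GAANNGAAA, found in 6.31%. Only these exact letters were searched. Related forms, such as gaaactgaaa in the B2m line, were not counted and stay in lower case, so lower case does not mean that such elements are absent. The Tap1 window held TGACG without a following ATTGG. Of the 10 genes, 6 were searched. H2-Ab1, Ciita and Nlrc5 had no usable entry among the promoters, and Cd74 was left out by choice. The class II side thus rests on H2-Aa and H2-Eb1 alone. These matches describe letters only.

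The section of the control heart covered 1256 spots with 14376300 unique molecular identifiers (UMIs, 1 per captured probe molecule) and a median of 11335.5 per spot. The section of the TOP2B heart covered 924 spots with 12953389 UMIs and a median of 14531 per spot. The sections shared 725 spot barcodes because these mark grid positions. Cardiomyocyte markers were plentiful in both, at 79291 to 81178 UMIs per 1000000 (CPM) over the 4 quadrants of the control heart and 35919 to 51348 CPM in the transgenic one. Top2b probes gave 106 CPM in the control heart and 102 CPM in the TOP2B heart, a log2 ratio of -0.07 (95% counting interval -0.17 to 0.04); whether they read the human transgene is not stated, so the label was not checked by them. With 1 section per condition no difference can be tested: animal, section plane and genotype cannot be told apart, and every interval below covers counting error only. A spot holds several cells or parts of cells, so more cells of a type and more RNA per cell cannot be told apart either.

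All 4 class II genes were more than 2-fold higher in the TOP2B heart. H2-Aa, the α chain of I-A, stood at 34.4 CPM in the control heart and 78.3 CPM in the TOP2B heart, from 494 and 1014 UMIs, a log2 ratio of 1.19 (1.03 to 1.35). H2-Ab1, its β chain partner, stood at 40.7 and 99.4 CPM, a log2 ratio of 1.29 (1.15 to 1.43). The paired chains thus lay within each other's counting intervals. H2-Eb1, the β chain of I-E, stood at 45.8 and 107.9 CPM, a log2 ratio of 1.24 (1.10 to 1.37). Cd74, the invariant chain that occupies the peptide groove until the endosome, stood at 236.7 CPM in the control heart and 494.5 CPM in the TOP2B heart, from 3403 and 6405 UMIs, a log2 ratio of 1.06 (1.00 to 1.12). In each of these genes, every quadrant of the TOP2B heart lay above every quadrant of the control heart. The share of all genes with such a separation was not counted, so it is a description only. As a ratio, the sections came closest in Cd74, with 250.4 CPM in the highest control quadrant and 307.0 CPM in the lowest transgenic one. Summed, the class II genes stood at 357.5 and 780.0 CPM, a 2.18-fold difference (2.11 to 2.26) and a log2 ratio of 1.13 (1.08 to 1.17).

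Class I genes differed less, and unevenly. H2-K1, a classical class I heavy chain, stood at 311.6 CPM in the control heart and 346.2 CPM in the TOP2B heart, a log2 ratio of 0.15 (0.09 to 0.21). Its quadrants overlapped, from 300.3 to 343.0 CPM in the control heart and from 299.5 to 445.4 CPM in the transgenic one. H2-D1, the other classical heavy chain measured, stood at 279.9 and 424.5 CPM, a log2 ratio of 0.60 (0.54 to 0.66). Its quadrants did not overlap, and neither did those of B2m and Tap1, a trait not counted over all genes. The counting intervals of these 2 ratios did not meet. Levels are not compared between genes, since the number of probes per gene is not stated. H2-K1 and H2-D1 are close paralogs, and whether probes for one also read the other was not tested. B2m, the light chain of every class I molecule, stood at 486.9 and 678.4 CPM, a log2 ratio of 0.48 (0.43 to 0.52). Tap1, a subunit of the peptide pump, was sparse, with 89 UMIs in the control heart and 156 in the TOP2B heart, or 6.19 and 12.0 CPM, a log2 ratio of 0.96 (0.58 to 1.35). The summed class I genes stood at 1085 and 1461 CPM, a 1.35-fold difference (1.32 to 1.38) and a log2 ratio of 0.43 (0.40 to 0.46).

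Both transactivators were sparsely read. Ciita, the class II transactivator, gave 45 UMIs in the control heart and 59 in the TOP2B heart, a log2 ratio of 0.54 (-0.04 to 1.13). Nlrc5, which acts on class I genes, gave 142 and 152 UMIs, a log2 ratio of 0.25 (-0.09 to 0.59). Both intervals included 0, so a difference in either transactivator was not detectable at this depth.

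**Figure D1:**
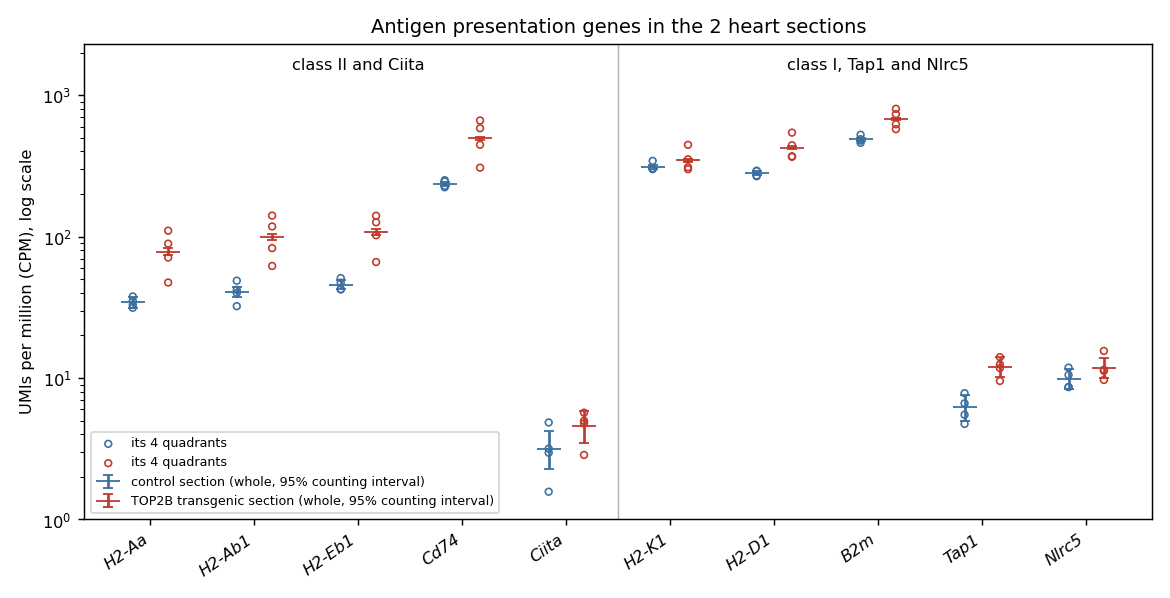
CPM of each gene on a log scale in the control (blue) and TOP2B transgenic (red) section; bars are the whole section with its 95% counting interval and open circles its 4 quadrants. The circles of the 4 class II genes do not overlap between sections, nor do those of H2-D1, B2m and Tap1. Those of H2-K1, Ciita and Nlrc5 do. Such separation was not counted over all genes.

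Of the 10 genes, 4 were at least 2-fold higher in TOP2B tissue, against 13.7% of the 15236 genes with at least 20 UMIs over both sections. None was at least 2-fold lower, against 5.61% of those genes. The median log2 ratio was 0.78 over the 10 genes, 1.21 over class II and 0.54 over class I, beside 0.20 over all 15236, of which 63.2% had a log2 ratio above 0. H2-K1 thus lay below the median of all genes. With edgeR's TMM scaling every ratio dropped by 0.16 on the log2 scale, which took Cd74 to 0.91, left the 3 class II chain genes at least 2-fold higher and turned H2-K1 to -0.0051. The share of all genes was not recomputed under that scaling.

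The balance of the classes does not depend on that scaling. For each class I UMI there were 0.330 class II UMIs in the control heart and 0.534 in the TOP2B heart, an odds ratio of 1.62 (1.56 to 1.69). On the log2 scale the class II difference exceeded the class I difference by 0.70 (0.64 to 0.75). Control quadrants had ratios of 0.310 to 0.355, all below the transgenic quadrants, where the ratio was lowest in the upper left at 0.383 and highest in the upper right at 0.595. Among the 50% of spots richest in cardiomyocyte markers in each section, the excess of class II over class I was 0.39 and the class II log2 ratio was 0.65. There 1 gene, the sparse Tap1, was at least 2-fold higher. The share of all genes at least 2-fold higher in those spots was not computed.

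Class II reads also reached more spots. H2-Ab1 had a UMI in 32.6% of control spots (29.98 to 35.23, Clopper-Pearson) and in 58.6% of transgenic spots (55.3 to 61.75). H2-Aa was read in 29.9% and 50.4% of spots, H2-Eb1 in 37.7% and 57.0%, and Cd74 in 83.1% and 90.6%. Because transgenic spots were deeper, shares were recomputed with 8134 UMIs drawn from every spot, dropping the 140 and 78 spots shallower than that. H2-Ab1 then stood at 25.5% and 46.4%, H2-Aa at 22.6% and 38.7%, and H2-Eb1 at 29.1% and 45.4%, so the transgenic share stayed higher at equal depth. H2-K1, H2-D1 and B2m were read in 93.9% to 98.8% of spots of either section, which leaves little room for a difference in shares. Tap1 was read in 6.77% and 15.6% of spots, or 4.81% and 9.70% after thinning. Ciita was read in 3.503% and 5.95%, or 2.47% and 3.37% after thinning, near the level of 1 UMI. Nlrc5 was read in 10.8% and 15.5%, or 8.06% and 9.27% after thinning.

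The rest of the class II pathway was mostly higher in the TOP2B heart, but not uniformly. Among its 15 other genes with at least 20 UMIs, 13 had a log2 ratio above 0, beside 63.2% of all genes, and 6 were at least 2-fold higher, beside 13.7%, with a median of 0.77. H2-DMa, a chain of the exchange factor that swaps the invariant chain remnant for peptide, had the highest log2 ratio, 1.61 (1.19 to 2.04), from 66 and 181 UMIs. Ctss, the cathepsin that trims the invariant chain, stood at 17.7 and 48.5 CPM, a log2 ratio of 1.45 (1.24 to 1.67). Rfxank, a subunit of the RFX complex that binds class II promoters, stood at 37.1 and 90.8 CPM, a log2 ratio of 1.29 (1.14 to 1.44). Rfx5, another subunit of the same complex, had the lowest, -0.92 (-1.35 to -0.50), from 147 and 70 UMIs. Subunits of 1 complex thus lay far apart, and Rfxap, the remaining one, was at 0.30 (0.09 to 0.51).

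The class I side was less shifted still. Among 13 other class I heavy chain genes, class I-like ones included, 10 had a log2 ratio above 0, a share near the 63.2% of all genes, and the median was 0.42. H2-T23, the nonclassical Qa-1 heavy chain, stood at 42.6 and 88.4 CPM, a log2 ratio of 1.05 (0.91 to 1.20). H2-Q10 was lowest at -1.51 (-3.13 to -0.13), from 19 and 6 UMIs. The 7 peptide loading genes had a median of -0.09, with the chaperone Tapbp, which bridges the pump and the heavy chain, highest at 0.44 (0.36 to 0.52) and its relative Tapbpl lowest at -0.37 (-1.01 to 0.27). Tap2, the partner of Tap1 in the pump, was at -0.09 (-0.20 to 0.02), an interval that did not meet that of Tap1. The 5 immunoproteasome genes, whose products cut peptides for class I, had a median of -0.12, from 0.13 (-0.04 to 0.29) in the catalytic subunit Psmb8 to -0.69 (-1.35 to -0.05) in the activator subunit Psme2. None of the peptide loading or immunoproteasome genes was 2-fold apart in either direction, beside 13.7% of all genes higher and 5.61% lower.

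Interferon γ is the classical inducer of both classes, and the 17 genes of its axis had a median log2 ratio of -0.01, with 2 at least 2-fold higher, near the 13.7% of all genes, and 3 at least 2-fold lower, beside 5.61%. Irf8, a factor of macrophage and dendritic lineages as well as an interferon-responsive gene, was highest at 1.69 (1.43 to 1.96), with 11.0 and 35.5 CPM. Ifngr1, a chain of the interferon γ receptor, stood at 32.4 and 66.1 CPM, a log2 ratio of 1.03 (0.86 to 1.19). Ifngr2, the other chain, was lowest at -2.05 (-2.17 to -1.94), with 228 and 54.9 CPM. Cd274, which encodes PD-L1, stood at 15.8 and 5.71 CPM, a log2 ratio of -1.47 (-1.87 to -1.08). Cxcl9, a chemokine induced by interferon γ, gave 118 and 30 UMIs, a log2 ratio of -1.83 (-2.45 to -1.24). Ifng itself gave 13 UMIs in each section. Of the 17 genes, 7 had a log2 ratio above 0, beside 63.2% of all genes. Summed, they stood at 670 and 477 CPM, a log2 ratio of -0.49 (-0.54 to -0.45), and Ifngr2 held 3277 and 711 of their 9633 and 6174 UMIs.

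**Figure D2:**
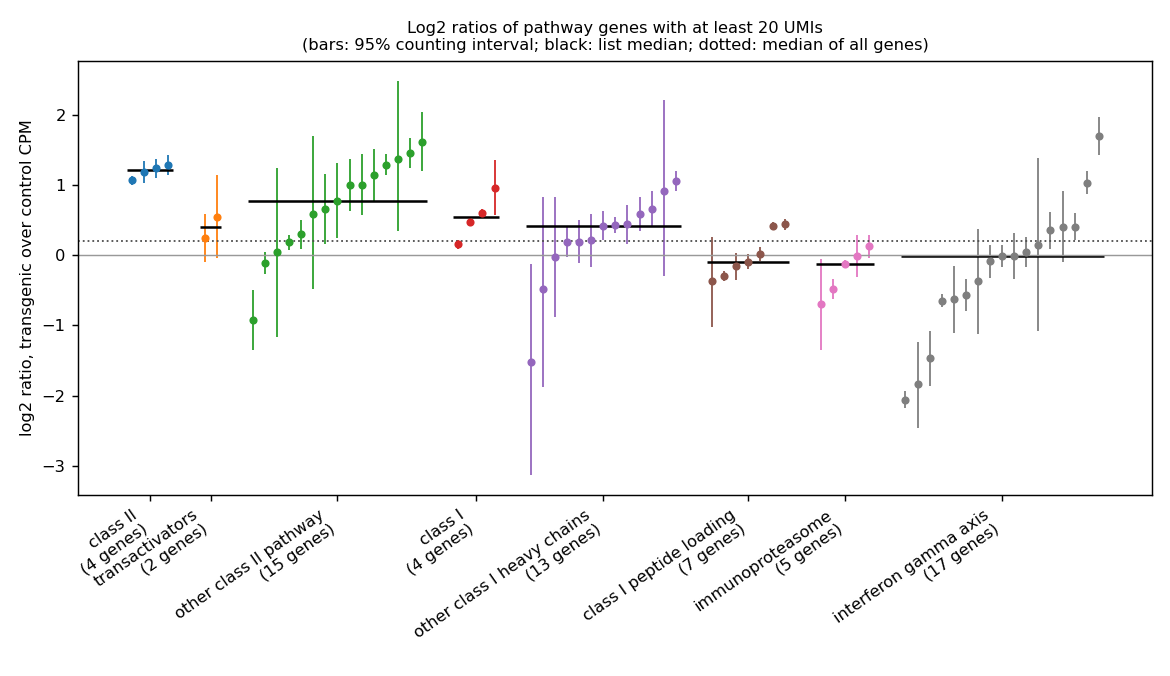
Log2 ratio of transgenic over control CPM for pathway genes with at least 20 UMIs over both sections, with 95% counting intervals; black bars are list medians and the dotted line is the median of all genes, 0.20. The 4 class II genes sit between 1.06 and 1.29, while the peptide loading, immunoproteasome and interferon γ lists have medians at or just below 0.

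Marker lists of cell types differed unevenly between the sections. The 15 macrophage markers summed to 408 CPM in the control heart (387 to 438 over quadrants) and 784 CPM in the TOP2B heart (664 to 884), a log2 ratio of 0.94 (0.90 to 0.99); 14 of 15 were above 0, beside 63.2% of all genes, from Lyz2 at -0.20 to Cx3cr1 at 2.06. For each macrophage marker UMI there were 0.877 class II UMIs in the control heart and 0.995 in the TOP2B heart, an odds ratio of 1.13 (1.08 to 1.19), while class I relative to the same markers had an odds ratio of 0.701 (0.674 to 0.728). The class II ratio to macrophage markers was 0.860 to 0.886 in control quadrants and spread more widely in the transgenic ones, between 0.642 in the upper left and 1.24 in the lower right, so it overlapped between sections. Fibroblast markers had a log2 ratio of 1.61 (1.59 to 1.63), and cardiomyocyte markers -0.88 (-0.88 to -0.87). Dendritic cell markers summed to 31.9 and 34.7 CPM, a log2 ratio of 0.12 (-0.07 to 0.31), but Zbtb46 alone, which was lowest at -0.15, held 379 and 307 of their 458 and 449 UMIs. Without it the dendritic cell markers summed to 5.50 and 11.0 CPM, a log2 ratio of 1.00 (0.59 to 1.41), from 79 and 142 UMIs. Leaving out Zbtb46, the lowest of the list, was not planned beforehand and raises the ratio, so this value is a description beside that of the full list. Of the 7 dendritic cell markers with at least 20 UMIs, 6 were above 0, beside 63.2% of all genes, with a median of 0.80. Cd209a at 1.19, from 16 and 33 UMIs, and Itgax at 3.40, from 2 and 19 UMIs, were at least 2-fold higher. Over all genes that share was 13.7%. B cell markers summed to 26.0 and 27.9 CPM, a log2 ratio of 0.10 (-0.11 to 0.31), and T and NK cell markers to 16.2 and 15.4 CPM, -0.08 (-0.36 to 0.20). Erythroid markers were 3.25 higher on the log2 scale, and without the 5% of spots richest in them the class II log2 ratio was 1.14. No marker in these lists was at 0 in either section. Without the 5% of spots richest in macrophage markers the class II log2 ratio was 1.06, and the part of any cell type in the class II and class I values was not tested further.

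Within the TOP2B heart both classes were gathered in space. Moran's I, which is near 0 when neighbouring spots are unrelated and rises when they are alike, was deposited for each gene and was 0.15 for Cd74 in the control heart and 0.49 in the TOP2B heart. H2-Aa went from 0.06 to 0.27, H2-Ab1 from 0.04 to 0.29 and H2-Eb1 from 0.05 to 0.29. Class I genes showed the same difference, with H2-K1 at 0.07 and 0.23, H2-D1 at 0.01 and 0.31, and B2m at 0.03 and 0.32. Many genes shared it: 146 of 19227 listed genes had a higher value than Cd74 in the TOP2B heart and 46 of 19219 in the control heart, so Cd74 stood nearer the top in the control heart. As a share of genes with a higher value, H2-D1 went from 26.3% in the control heart to 1.97% in the transgenic one, and B2m from 3.28% to 1.94%. The other abundant members did not climb in rank: H2-Ab1 was at 2.23% in both, while H2-K1 went from 0.864% to 3.21%, H2-Aa from 1.24% to 2.48% and H2-Eb1 from 1.46% to 2.26%. Ciita, Tap1 and Nlrc5 stayed between -0.0035 and 0.022 in both sections, and their counts are too sparse for a pattern to be read.

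**Figure D3:**
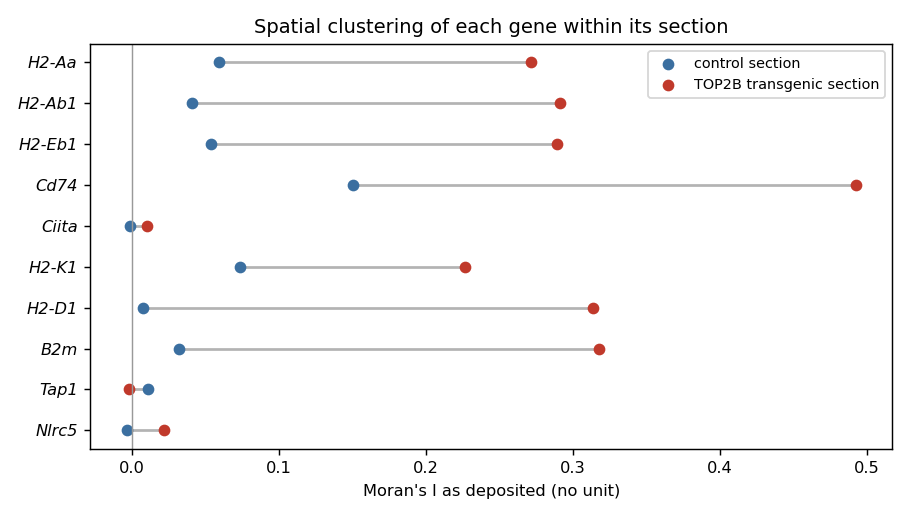
Deposited Moran's I of each gene in the control (blue) and TOP2B transgenic (red) section; each line joins the 2 values of a gene. All 7 abundant genes lie further right in the TOP2B heart, and Ciita, Tap1 and Nlrc5 lie near 0 in both.

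On the maps the transgenic signal was highest at 1 end and along the outer rim, which may share spots and were not separated. When the spots of each section were split into 5 bands from left to right on the array, the right-hand band of the TOP2B heart held class II at 1375 CPM (1331 to 1420), against 410 to 751 CPM in the other bands. Class I there was 2106 CPM (2051 to 2162), against 1143 to 1403 CPM elsewhere. H2-K1, nearly level between whole sections, stood at 520.6 CPM in that band and at 277.6 to 333.7 CPM in the others. Macrophage markers were also highest there, at 935 CPM against 602 to 847 CPM, as were fibroblast markers at 8064 CPM against 4288 to 7344 CPM. In the control heart class II ran only from 296 to 418 CPM over the bands and class I from 1018 to 1162 CPM. The bands were drawn after the maps had been seen, so they describe the pattern and support nothing further.

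**Figure D4:**
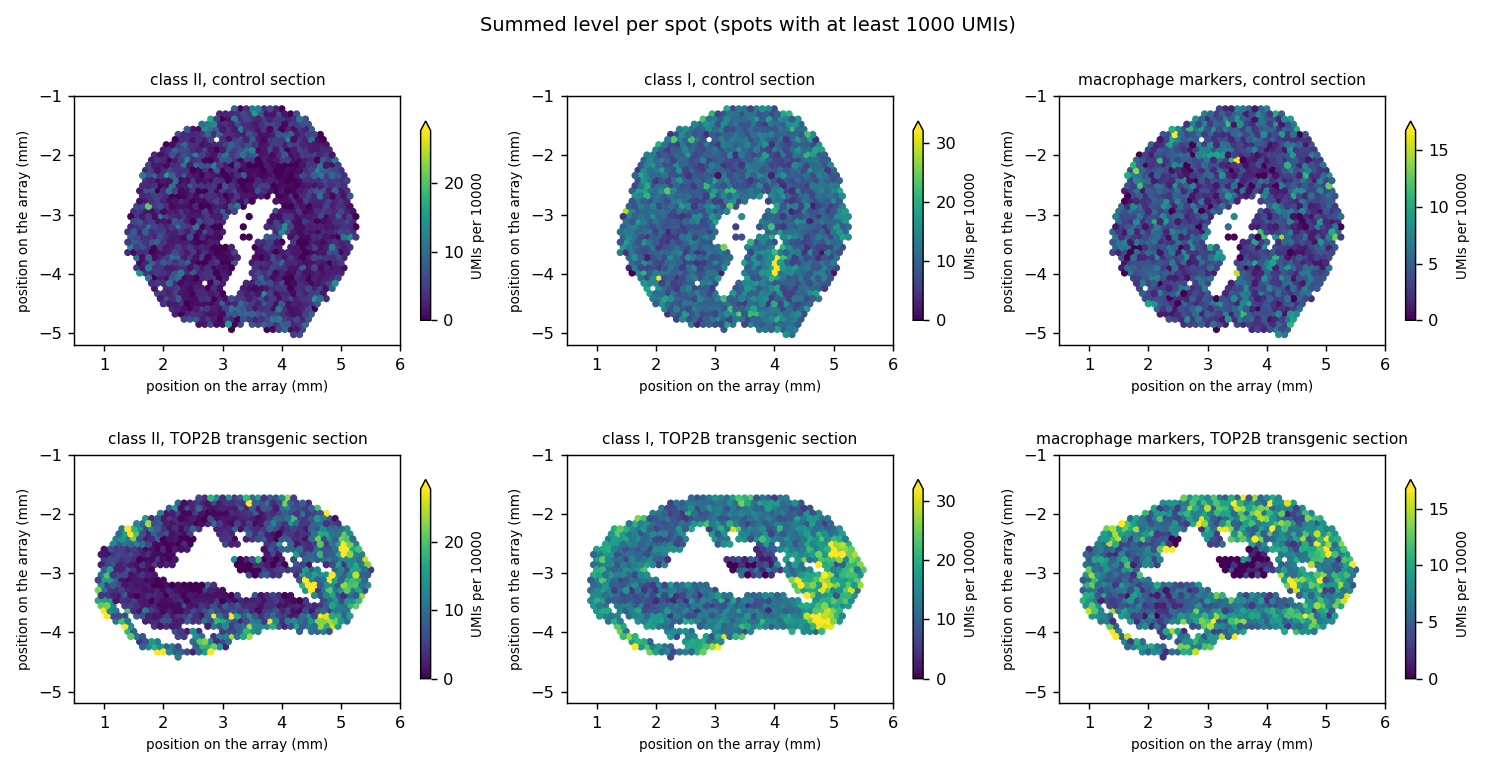
Summed UMIs of class II genes, class I genes and macrophage markers per 10000 UMIs in each spot with at least 1000 UMIs, by position on the array in mm, in the control (top) and TOP2B transgenic (bottom) section; each column of maps shares a colour scale capped at its 99th percentile. In the TOP2B heart class II and class I are brightest at the right-hand end. Class II is also higher on the outer border, where class I is raised less, but that border may share spots with the right-hand end. Interior spots hold class II at 723 CPM there, below the outer border at 1283 CPM but above the control interior at 353 CPM.

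**Figure D5:**
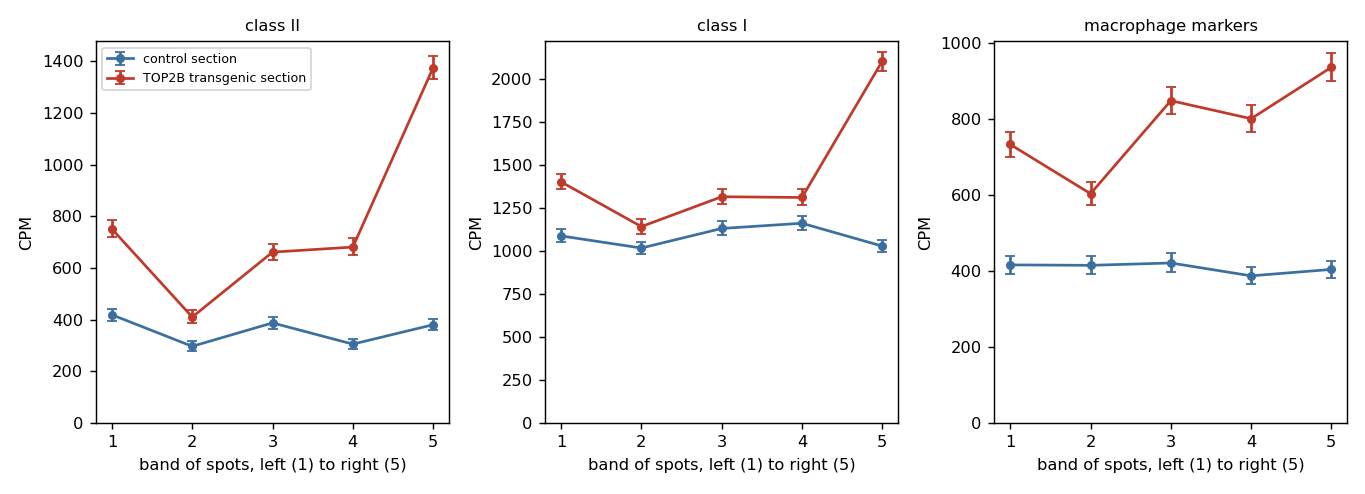
CPM of class II genes, class I genes and macrophage markers in 5 bands of spots from left to right in the control (blue) and TOP2B transgenic (red) section, with 95% counting intervals. The right-hand band of the TOP2B heart reaches 1375 CPM for class II and 2106 CPM for class I. In the control heart class I and macrophage markers stay nearly level, while class II runs from 296 to 418 CPM.

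Summed, both classes stood higher in edge spots, class II more so in the TOP2B heart. Edge spots, those with fewer than 6 tissue neighbours, exceeded interior spots in class II by a log2 ratio of 0.14 (0.02 to 0.25) in the control heart and 0.36 (0.30 to 0.42) in the TOP2B heart. The class I values were 0.16 (0.10 to 0.23) and 0.12 (0.08 to 0.17). Gene by gene, the control intervals of every class II gene, B2m and Tap1 included 0, while those of H2-K1 and H2-D1 did not. In the TOP2B heart only H2-D1 among the class II and class I genes had such an interval, at 0.01 (-0.08 to 0.09). Split further, 133 transgenic spots on the outer border held class II at 1283 CPM (1229 to 1338), 178 spots bordering enclosed gaps at 632 CPM (598 to 668), and the 613 interior spots at 723 CPM (706 to 740). For class II, the outer border thus stood above the interior and the borders of gaps below it. Outer border spots may also lie in the right-hand band, and the border outside that band was not measured apart, so the rim and the right-hand end are not separated here. The control heart had the same class II order at lower levels, with 456, 289 and 353 CPM. Class I was also higher on the outer border, at 1645 CPM (1584 to 1708) against 1425 CPM in the interior of the TOP2B heart. In the control heart the values were 1160 and 1067 CPM. Unlike class II, class I was not lower at gap borders. It stood there at 1476 CPM in the TOP2B heart, with an interval overlapping that of the interior, and at 1245 CPM in the control heart. Among class II genes the transgenic outer border reached 135.8 CPM for H2-Aa, 158.3 for H2-Ab1, 179.5 for H2-Eb1 and 809.0 for Cd74. Macrophage markers on that border were at 893 CPM, against 773 CPM in the interior.

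The richest spots held different shares of each class. They were picked by the level of that class itself, so an excess over their share of all UMIs was fixed in advance. The excess expected from counting noise was not computed, and class II counts per spot differed between the sections. In spots with at least 1000 UMIs, the 5% with the highest class II level held 15.6% of class II UMIs in the control heart and 19.96% in the TOP2B heart, and their levels reached 20.8 and 68.1 UMIs per 10000. Those transgenic spots held 9.42% of class I UMIs with 5.17% of all UMIs. Of marker UMIs they held 8.86% for B cells, which were sparse, 8.44% for macrophages and 6.46% for fibroblasts. For endothelial cells the share was 5.71%, and for cardiomyocytes 4.49%. The corresponding control spots held 4.93% of class I UMIs with 4.71% of all UMIs, nearly the same share. The 5% of spots richest in class I held 11.2% of class I UMIs in the TOP2B heart, and 44.6% of their neighbours were also among the richest, against 13% in the control heart.

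Across spots, class II and class I levels had a Pearson correlation of 0.10 over 1249 control spots and 0.50 over 921 transgenic spots; spots of a section share library and depth, so these are descriptions. Pairs of class II genes correlated at 0.48 to 0.61 in the TOP2B heart and at 0.13 to 0.29 in the control heart. Fewer class II UMIs per spot were read in the control heart, which by itself can lower a correlation. No correlation was computed at matched counts, so whether the genes were more tightly coupled in either heart was not tested. In the TOP2B heart class II correlated with fibroblast markers at 0.45, macrophage markers at 0.43, B cell markers at 0.07 and erythroid markers at -0.20. In the control heart class II stood at -0.04 with fibroblast markers and 0.19 with macrophage markers, and class I at 0.20 and 0.14. Class I in the TOP2B heart correlated with fibroblast markers at 0.56, macrophage markers at 0.52 and erythroid markers at -0.38. It also correlated with endothelial markers at 0.37 and cardiomyocyte markers at 0.27. Smooth muscle and pericyte markers stood at 0.46 with class I and 0.30 with class II. Over the 2331 genes with at least 1000 UMIs there, the median correlation was 0.15 with class I and 0.07 with class II. Among 2331 genes with at least 1000 UMIs in the TOP2B heart, those most like class II were Apoe at 0.56, Tmsb4x at 0.49, Col1a1 at 0.48, Col1a2 at 0.47 and Col3a1 at 0.46, and those most like class I were Apoe at 0.62, Itm2b at 0.57, Mgp at 0.53, Cst3 at 0.52 and Igfbp7 at 0.52. In the control heart no gene exceeded 0.19, and all values were weak. Lrtm1, Hspb8, C1qa, Prnp and Apoe led for class II, and Mgp, Col1a1, Ptms, Igfbp7 and Col3a1 for class I. Class II counts were sparse there, whereas class I was read in 99.7% of control spots.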

How the data were processed

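Visium CytAssist libraries of 2 mouse heart sections, 1 per condition, were analysed. Per the labels and file headers, the authors processed reads with Space Ranger (2.0.0 in the matrix header) and the notes name GRCm39; they deposited the unnormalised UMI counts of each gene in each spot over tissue, spot positions, and Moran's I per gene (a spatial score, with p-values that were not used). The probe set, filters on probes and Moran's settings are not given in the sources used here.

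UMIs were summed per section and divided by the section total (CPM). Poisson, conditional binomial and Clopper-Pearson 95% intervals cover counting error only; spots are not replicates, so no test was run. A count of 0 allows up to 3 UMIs. Ratios were reported for genes with at least 20 UMIs; named pathway genes were the highest and lowest of each list and those at least 2-fold apart with at least 200 UMIs in a section; Rfxap, Tap2, Cxcl9 and Ifng were named after their values were seen. Of 182 listed genes, 10 did not match a symbol in the files. Edge, quadrant, thinned, richest-spot and marker-rich settings, and edgeR 4.0.16 and DESeq2 1.42.0 scaling (R 4.3.3), were computed with Python 3.11.15, and code was tested on simulated data. Genes and lists were chosen with earlier results of these data known. The promoter and gene tables are on GRCm38.p6, another build than the notes name, and were used only for sequences and names.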

Additional observations from a re-analysis of the deposited data

How the results depend on the processing

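The class II log2 ratio of 1.13 was 0.97 with edgeR's TMM factors, 0.98 with DESeq2 size factors and 1.04 with totals that leave out the 50 most abundant genes, and the class I ratio of 0.43 was 0.27, 0.28 and 0.34. Class II was 1.04 over interior spots, 0.65 in the 50% of spots richest in cardiomyocyte markers, 1.06 without the 5% richest in macrophage markers, 1.24 without the most abundant gene and 1.21 as the median of the genes. Class I was 0.073 as a mean over spots, 0.26 in cardiomyocyte-rich spots, 0.39 without the most abundant gene and 0.54 as the median of the genes. The class II excess over class I of 0.70 was 1.02 as a mean over spots, 0.62 over interior spots, 0.39 in cardiomyocyte-rich spots and 0.85 without the most abundant genes. In cardiomyocyte-rich spots 1 gene, Tap1, was at least 2-fold higher, and no setting gave a gene at least 2-fold lower. The shares of all genes were not recomputed under these settings. H2-K1 was -0.0051 with TMM factors and -0.0077 in cardiomyocyte-rich spots. B2m was -0.19 as a mean over spots, where a control spot with 3 UMIs holds a B2m UMI; over spots with at least 1000 UMIs, a setting added after the data were seen, B2m was 0.44 and class I 0.39. Over 11 alternatives H2-Aa, H2-Ab1, H2-Eb1, Cd74, H2-D1, Tap1 and Nlrc5 kept ratios above 0, and Ciita was below 0 in cardiomyocyte-rich spots, at -0.34. No paired analysis was possible because each condition has 1 section. Depth limits Ciita, Tap1 and Nlrc5, and genes read fewer than 20 times.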

Other observations

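A small group of control spots held high class I without high class II. The control spot with the most Cxcl10 UMIs, 4 of the section's 40, was taken with its surrounding 2 rings, 19 spots and 204904 UMIs in all; the spot was chosen after the class I map had been seen, so the values are a description with no test. Cxcl10 encodes a chemokine induced by interferons. Class I stood at 1894 CPM in these spots and 1073 CPM in the rest of the control section, a log2 ratio of 0.82 (0.67 to 0.97), with B2m at 0.92 (0.71 to 1.13), H2-K1 at 0.87 (0.59 to 1.13) and H2-D1 at 0.58 (0.25 to 0.89). Class II stood at 332 and 358 CPM, a log2 ratio of -0.11 (-0.48 to 0.24). Nlrc5 gave 6 UMIs, 29.3 CPM against 9.60 CPM, a ratio of 3.05 with a log2 interval of 0.14 to 2.77, while Tap1 gave 1 UMI and Ciita 0, which allows up to 14.6 CPM.

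The 17 genes of the interferon γ axis, Cxcl10 among them, summed to 1118 CPM in the same spots and 664 CPM in the rest, a log2 ratio of 0.75 (0.56 to 0.94). Cxcl10, by which the central spot was chosen, gave 16 of their 229 UMIs in these spots. Part of the excess was thus fixed in advance, and the sum without Cxcl10 was not computed. Cxcl9 stood at 48.8 and 7.62 CPM, from 10 UMIs in the spots. Cd274 stood at 63.4 and 15.1 CPM, Gbp2 at 83.0 and 21.8 CPM, and the transcription factor Irf1 at 92.7 and 29.3 CPM. Irgm2, an interferon-induced GTPase, stood at 146 and 34.2 CPM from 30 UMIs, a log2 ratio of 2.10 (1.51 to 2.63). The immunoproteasome list stood at 605 and 549 CPM, a log2 ratio of 0.14 (-0.13 to 0.40), with Psmb8 at 1.00 (0.22 to 1.70), Psmb9 at 0.77 (-0.87 to 2.01) and Psmb10 at 0.51 (-0.19 to 1.13). Gbp5 stood at 4.88 CPM in these spots, from 1 UMI, and at 7.20 CPM in the rest. The genes named here were picked after their values were seen. Macrophage markers stood at 503 and 406 CPM, a log2 ratio of 0.31 (0.01 to 0.59), and T and NK cell markers gave 2 UMIs. In the transgenic section no spot held more than 2 Cxcl10 UMIs. Without these 19 spots the class I log2 ratio of transgenic over control was 0.45 (0.41 to 0.48).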
